A study of Homo sapiens with 8 samples.

Results

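The nuclear genes of oxidative phosphorylation examined here are the autosomal protein-coding genes whose symbol starts with NDUFA, NDUFB, NDUFC, NDUFS, NDUFV, UQCR or ATP5, which are 75 of the 19229 autosomal protein-coding genes in the annotation. The rule uses symbols alone and no measured value, but it was chosen with earlier results of these data known. Of the 75 genes, 2 are read-through genes, NDUFC2-KCTD14 and ATP5MF-PTCD1, which share the promoter of NDUFC2 and ATP5MF, so that 73 remain without them. A further 2 genes with such symbols, NDUFA1 and NDUFB11, lie on chromosome X and are outside the rule.

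The data are 8 CUT&Tag libraries of HCT15, an established line of human colorectal cancer cells. In CUT&Tag an antibody tethers a transposase that cuts out the DNA beside a histone modification for sequencing. The antibodies recognised H3K23su, succinylation of histone H3 at lysine 23, or H3K27ac, acetylation at lysine 27, a mark of active promoters and enhancers. For each mark, 2 libraries came from the parental line HCT15-Pa, labelled as given DMSO, and 2 from the 5-FU-resistant line HCT15-FR, labelled as given 20 μg/mL 5-FU, a pyrimidine analog used in chemotherapy. According to the methods, the resistant cells were kept in medium without the drug for a time before experiments. All libraries share the HCT15 background, and each line is a single cell line, so resistance, long drug exposure and any other difference between the lines cannot be told apart. No source says whether the 2 libraries of a group came from separate cultures, and the p values below therefore measure only the spread between these libraries, which may be technical.

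Oxidative phosphorylation couples the oxidation of NADH and succinate to ATP synthesis in the inner mitochondrial membrane. Complex I, built from the NDUF subunits, takes electrons from NADH, complex III (UQCR) passes them from ubiquinol to cytochrome c, and ATP synthase (ATP5) uses the resulting proton gradient. Most subunits are encoded in the nucleus and imported, and their promoters are known for CpG islands and for binding sites of the factors NRF1, GABP (an ETS factor) and YY1.

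Each library was deposited as a list of 65364 to 76676 peaks. Every peak has a score, the −log10 of its MACS2 P value, and its percentile is its rank among all peaks of its own list on a scale from 0 to 100. The window of a gene was 1 kb either side of the transcription start site (TSS) of its canonical transcript, and the score and percentile of a gene are those of the strongest peak that touches this window. The lists hold no reads, so the depth behind a peak is unknown from them, and a missing peak was not detectable at the authors' threshold. Of 11 markers of colon epithelium, 6 had an H3K23su and 8 an H3K27ac peak in all 4 libraries of the mark, among them EPCAM and CDH1. CDX1 had peaks of both marks in the HCT15-FR libraries and none in HCT15-Pa. CDX2 and CDH17 had H3K27ac in all 4 libraries but H3K23su in HCT15-FR libraries only. KRT20 had a peak in 1 H3K23su library of HCT15-FR alone, and GPA33 in 2 H3K23su and 3 H3K27ac libraries. The leukocyte markers PTPRC, CD3E and LYZ, the fibroblast markers COL1A2, DCN and PDGFRB and the endothelial marker KDR had no TSS peak in any library. CD14 had peaks in all 8 libraries, COL1A1 in the 4 H3K27ac libraries, and CDH5 in 1 library of each mark, and the part of these in any result was not tested.

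Nearly all of the 75 genes carried both marks at their start sites in both lines. An H3K23su peak touched the window of 71 and 72 genes in HCT15-Pa and of 72 genes in each HCT15-FR library. For H3K27ac the counts were 72 in each HCT15-Pa library and 72 and 71 in the HCT15-FR libraries. The share with a peak therefore lay between 94.7% and 96% in all 8 libraries, while among all autosomal protein-coding genes it was 58.1% to 59.4% in the H3K23su lists and 62.6% to 64.1% in the H3K27ac lists. Peaks in all 4 libraries of H3K23su were found at 71 members (94.7%), against 53.3% of all genes, and for H3K27ac also at 71 members, against 57.6%. The same 71 members had a peak in all 8 lists, which held for 10091 genes (52.5%) of the annotation. High shares were also seen for cytosolic and mitochondrial ribosomal protein genes, at 88.8% to 96.2% and 97.4% to 100% of each list.

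No member gained or lost a TSS peak between the lines. Members whose H3K23su peak was found in 2 of 2 lists of HCT15-FR and in 0 of 2 of HCT15-Pa numbered 0, where 1.83% of all genes showed this pattern, and the number with the reverse pattern was 0, against 1.46%. For H3K27ac the counts were likewise 0, against 1.25%, and 0, against 2.06%.

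The members without a peak in any list were paralogues or copies of other members. UQCRHL (chr1:16133664-16135843, minus strand), a copy of the complex III hinge protein gene UQCRH, NDUFA4L2 (chr12:57628686-57634498, minus strand), a hypoxia-inducible paralogue of NDUFA4, and ATP5MGL (chr22:43035809-43036607, minus strand), a paralogue of the ATP synthase subunit g gene ATP5MG, had no TSS peak in any of the 8 lists (coordinates here and below are hg19). The authors kept uniquely mapped reads only, so at copies of other genes such as UQCRHL a lack of signal and a lack of mappable reads cannot be told apart. The genes they resemble were strongly marked, with mean percentiles over the 4 H3K27ac libraries of 99.9 for NDUFA4 (SD 0.0153, n = 4), and percentiles of 97.5 to 98.8 for UQCRH and 93.6 to 99.2 for ATP5MG.

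ATP5F1D (chr19:1241745-1244824, plus strand), which encodes the delta subunit in the central stalk of ATP synthase, was the one member with a patchy start site. Its H3K23su peak was missing in HCT15-Pa replicate 1 and lay at percentile 9.61 in HCT15-Pa replicate 2, with 43.9 and 8.96 in the HCT15-FR libraries. Its H3K27ac peak lay at percentiles 23.7 and 26.4 in HCT15-Pa and 42.3 in HCT15-FR replicate 1 and was missing in HCT15-FR replicate 2. All 6 peaks thus ranked at 43.9 or lower, and they were 146 to 789 bp wide. A region merged from H3K23su peaks of all 4 libraries (chr19:1244468-1245358, percentiles from 13.0 to 74.7) overlapped exon 4 and ran past the end of the gene. Inside the gene, beyond 1 kb from the TSS, HCT15-Pa replicate 1 had 0 H3K23su peaks and the other libraries had 1 each.

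**Figure D1:**
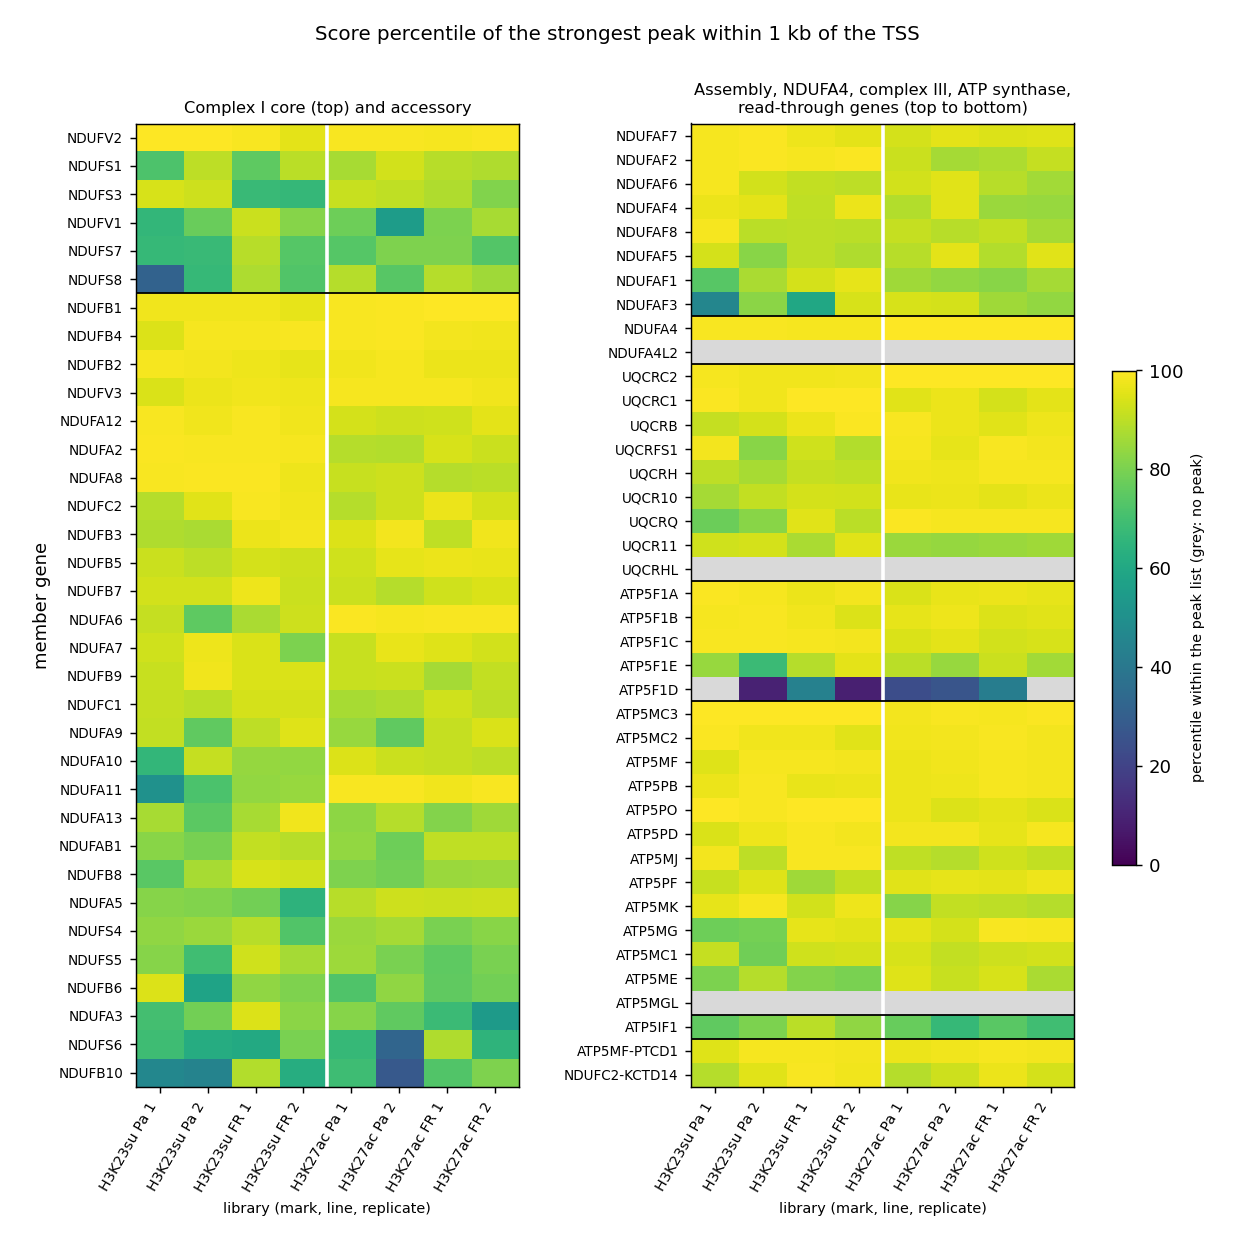
Score percentile of the strongest TSS peak (colour, 0 to 100, grey for no peak) of the members (rows, grouped by role between black lines) in the 8 libraries (columns, H3K23su left and H3K27ac right of the white line). The rows of UQCRHL, NDUFA4L2 and ATP5MGL are grey throughout, ATP5F1D is grey in 2 libraries, and the other rows shown have a peak in every library.

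Where a peak was present, it ranked high in its list. The median percentile of the members was 91.8 and 91.0 for H3K23su in HCT15-Pa, 93.7 and 94.6 in HCT15-FR, 92.5 and 92.8 for H3K27ac in HCT15-Pa, and 92.8 and 93.7 in HCT15-FR. The medians over all genes with a peak were lower in each library, from 85.5 to 87.2 for H3K23su and from 86.5 to 87.5 for H3K27ac. For H3K23su both HCT15-FR medians of the members exceeded both HCT15-Pa medians, and the medians over all genes moved the same way, from 85.6 ± 0.0769 (SD, n = 2) to 87.1 ± 0.0771 (SD, n = 2). For H3K27ac the members' medians averaged 92.6 ± 0.245 in HCT15-Pa and 93.2 ± 0.626 in HCT15-FR (SD, n = 2 each), and the libraries of the lines overlapped.

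Other gene lists were set beside the members. Among the 80 cytosolic ribosomal protein genes, the medians for H3K23su (85.1 to 88.6) lay below those of the members in every library, and the medians for H3K27ac (95.1 to 97.4) lay above them. The 78 mitochondrial ribosomal protein genes had medians of 90.1 to 92.6 and 91.0 to 92.4. The list of 45 other pathway genes (complex II, complex IV, cytochrome c and further assembly factors) had medians of 90.4 to 93.5 and 91.3 to 94.0. The last of these lists overlapped the range of the members in both marks.

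**Figure D2:**
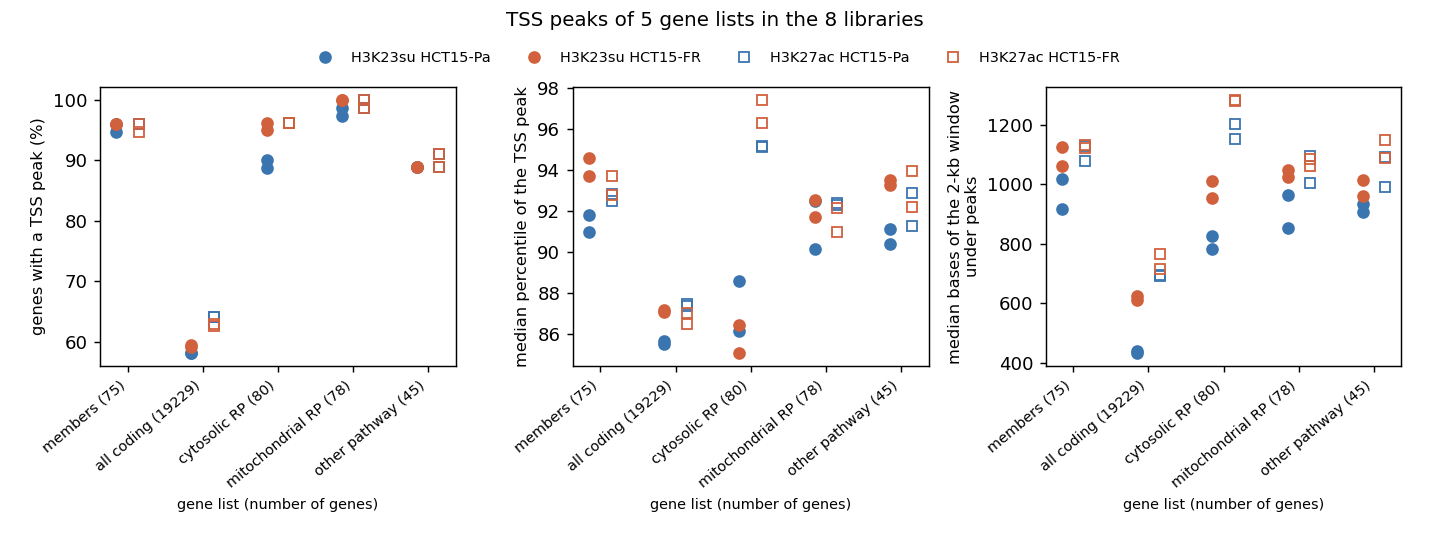
Share of genes with a TSS peak (left), median percentile of the TSS peak (middle) and median bases of the 2-kb window under peaks (right) for the 75 members, all 19229 genes and 3 other gene lists, with 1 point for each of the 8 libraries. The members' medians of covered bases lie between 917 and 1134 bp and those of all genes between 433 and 767 bp, and the vertical axes do not start at 0.

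The peaks sat over the start sites themselves. In the window, a median of 917 to 1127 bp of the members was under H3K23su peaks and of 1080 to 1134 bp under H3K27ac peaks, which includes members without a peak, against 433 to 624 bp and 691 to 767 bp over all genes. The strongest peak of a member was about as wide as that of any gene with a peak, with medians of 917 to 1156.5 bp against 917 to 1106 bp for H3K23su. The TSS base was under a peak for 91.5% to 98.6% of members with an H3K23su peak and for 97.2% to 100% with an H3K27ac peak, against 75.5% to 83% and 82.7% to 86.9% of all genes. The centre of the strongest peak lay downstream of the TSS, by a median of 156 to 175.25 bp for H3K23su and 96 to 137.5 bp for H3K27ac. Over all genes with a peak the medians were also downstream, at 185 to 198.5 bp and 101 to 111.5 bp.

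The promoters of the members also shared features that the choice by symbol did not use. A start site of another coding gene lay within 1 kb on the opposite strand for 25 members (33.3%), against 10.1% of all genes. These pairs include UQCRH with LRRC41, NDUFS3 with KBTBD4, NDUFAF2 with the DNA repair gene ERCC8, NDUFA7 with the ribosomal protein gene RPS28, NDUFB5 with the mitochondrial ribosomal protein gene MRPL47, and ATP5PF with GABPA, itself a regulator of this pathway. Peaks in such windows belong to both genes and cannot be assigned to either. For ATP5PF and GABPA, whose start sites are 68 bp apart, the percentiles were identical in all 8 libraries.

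Cores of the motifs of pathway regulators were searched as exact letters on both strands within 200 bp of the TSS. The NRF1 core GCGCATGC was found at 12 members (16.0%, against 4.14% of all genes), the ETS core CCGGAAGT at 10 (13.3%, against 6.22%) and the YY1 core AAGATGGC at 13 (17.3%, against 4.7%). At least 1 of these was present at 32 members (42.7%), against 13.8% of all genes. The general promoter motifs GGGCGG (SP1) and CCAAT were found at 64.0% and 36.0% of members, near the 66.5% and 38.0% of all genes. The NRF1 core overlaps its own reverse complement by most of its letters, so some sites match on both strands and hold 2 of the 16 cores found. A match is a description of the sequence and does not show that a factor binds there.

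The YY1 cores lay mostly just inside the transcript. Of the 13 cores, 12 lay on the strand of the gene (92.3%, against 74.5% of the cores over all genes) and 11 began at or after the TSS (84.6%, against 72.9%), at a median of 17 bp, against 15 bp over all genes. They ranged from −71 to 38 bp. In 10 of them the ATG inside the core was the start codon of the canonical transcript (76.9%, against 41.4% of the 929 cores over all genes). Among these were NDUFS4, NDUFS7, NDUFA3, NDUFA6, NDUFA7, NDUFA9, NDUFB8, UQCRC1 and ATP5PO. The sequences below show this arrangement at members whose marks are described further on, each on the strand of the gene from GRCh37, with the core in capitals. NDUFA9 lies at chr12:4758279-4758308 (plus strand), UQCRC1 at chr3:48647038-48647067 (minus strand), NDUFA6 at chr22:42486733-42486762 (minus strand) and ATP5PO at chr21:35288052-35288081 (minus strand).
NDUFA9: gattgtgggaaAAGATGGCggctgccgcac
UQCRC1: actgcagctggAAGATGGCggcgtccgtgg
NDUFA6: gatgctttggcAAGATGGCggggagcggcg
ATP5PO: ccgcccgggagAAGATGGCtgccccagcag

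The ETS and NRF1 cores lay mostly upstream. All 10 ETS cores began before the TSS, at a median of −78 bp, against 80.1% of the ETS cores over all genes. For NRF1, 14 of 16 cores did (87.5%), at a median of −31 bp, close to the 90.8% over all genes. The sites below are shown because they stand in promoters shared with a neighbouring gene or at a member with a large difference between the marks. The ETS cores of ATP5PF (chr21:27107205-27107234, minus strand) and UQCRH (chr1:46769312-46769341, plus strand) are in capitals, as are the NRF1 cores of NDUFA8 (chr9:124922044-124922073, minus strand) and ATP5F1C (chr10:7830107-7830136, plus strand). In UQCRH the core is on the opposite strand and reads ACTTCCGG.
ATP5PF: cggagccagggCCGGAAGTagagcggaggt
UQCRH: gagtgtgccgcACTTCCGGccagatcgccg
NDUFA8: tgttgccggatGCGCATGCgcaggcgccgt
ATP5F1C: ggggagcttcgGCGCATGCgcgctgaggcc
The GC content within 200 bp of the TSS was 62.8% at the median member and 65.3% at the median gene, with CpG ratios (observed over expected) of 0.843 and 0.79.

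**Figure D3:**
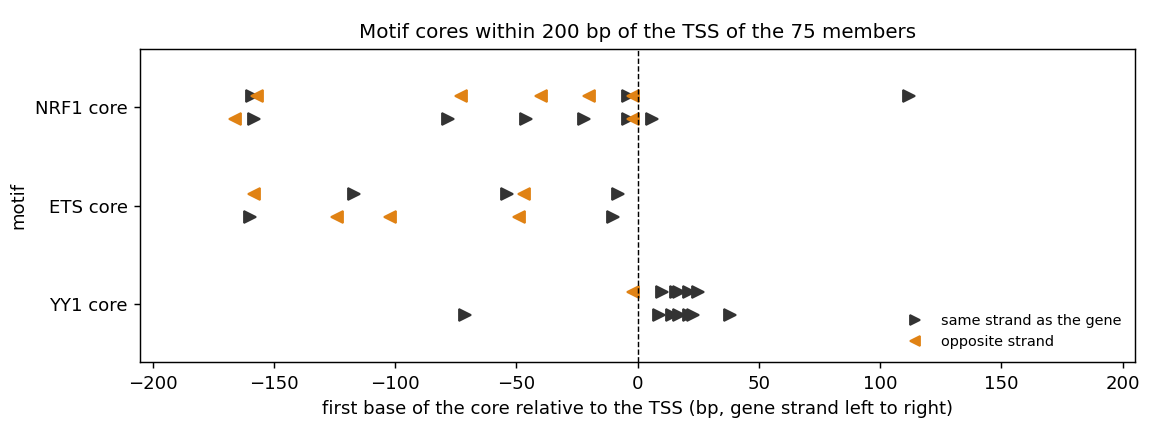
Position of each exact YY1, ETS and NRF1 core relative to the TSS (bp, 0 at the dashed line, upstream to the left) in the 75 members, with triangles pointing right for the strand of the gene and left for the opposite strand. Of the 13 YY1 cores, 11 begin at or after the TSS, while all 10 ETS cores begin before it.

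The level of the marks differed between the complexes. For H3K23su, the 7 core subunits of complex I, which carry the flavin and iron-sulfur centres, had the lowest median of the larger groups, 71.7 in HCT15-Pa and 82.5 in HCT15-FR (median over genes of the mean percentile of 2 libraries). The 28 accessory subunits reached 85.9 and 92.8 and the 8 assembly factors 94.9 and 92.1. Complex III had 91.4 and 92.9, the catalytic F1 part of ATP synthase 98.9 and 96.3, and its membrane part with the peripheral stalk 96.4 and 96.7. For H3K27ac the order was different at the top. Complex III was highest, with 97.6 and 97.5, followed by the membrane part of ATP synthase with 95.8 and 97.1 and the F1 part with 95.3 and 94.3, while the complex I groups lay between 87.5 and 92.5. These are medians over genes that are not replicates, and no test was made between the groups. The F1 medians cover different genes in the lines, because the low-ranking ATP5F1D lacked a peak in 1 library of each mark. For H3K23su they rest on 4 genes in HCT15-Pa and 5 in HCT15-FR, and for H3K27ac on 5 and 4. A difference between the lines in the F1 medians therefore includes the entry or loss of ATP5F1D.

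The highest H3K23su percentiles belonged to ATP synthase and complex III. ATP5MC3, a gene for the membrane-embedded c subunit, averaged 99.7 ± 0.110, ATP5PO, the subunit that ties the peripheral stalk to F1, 99.6 ± 0.304, and UQCRC1, a core protein of complex III, 99.2 ± 0.926 (SD, n = 4 each). Among the lowest were complex I genes, with NDUFB10, an accessory subunit of the membrane arm, at 60.5 ± 20.2 and NDUFS8, an iron-sulfur core subunit, at 64.7 ± 23.8. The spread of the low genes was wide. NDUFB10 had H3K23su percentiles of 46.4 and 44.7 in HCT15-Pa and 88.4 and 62.3 in HCT15-FR, and NDUFS8 of 31.5 and 67.0 against 87.6 and 72.8, so that both HCT15-FR values stood above both HCT15-Pa values in each.

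For H3K27ac, NDUFA4, now known as a subunit of complex IV, averaged 99.9 ± 0.0153, UQCRC2, the other core protein of complex III, 99.8 ± 0.0913, and NDUFB1, an accessory subunit, 99.5 ± 0.324 (SD, n = 4 each). NDUFB10 was again lowest at 62.5 ± 23.7, followed by NDUFS6, a zinc-binding accessory subunit, at 63.1 ± 22.9, and NDUFA3, a small accessory subunit, at 70.0 ± 11.8. HCT15-Pa replicate 2 gave the lowest value for NDUFB10 (27.7) and for NDUFS6 (32.6), and the other libraries of both genes lay between 65.0 and 88.2.

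The next question was whether the 2 marks rank the same start sites alike. The scores cannot be compared directly between marks, because the broad option of the peak caller is named for H3K27ac only, so log2 scores were quantile-normalised over the 8 lists and compared with limma, with the line as a covariate, over the 10091 genes with a peak in all lists. At an adjusted p under 0.05 (Benjamini-Hochberg over all genes tested), 17 of the 71 members tested ranked higher for H3K23su, against 20.8% of all genes, and 13 ranked higher for H3K27ac, against 19.3%. Both counts were near the background. The median difference of H3K23su minus H3K27ac was 0.10 on the log2 scale for the members and 0.04 for all genes.

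The genes that ranked higher for H3K27ac included 5 of the 8 tested complex III genes, against 19.3% of all genes. These were UQCRQ, UQCRH, UQCRC2, UQCRFS1 and UQCR10, while UQCRC1 and UQCR11 ranked higher for H3K23su, against 20.8% of all genes. The complexes were not tested against each other or against all genes. Within each line alone, UQCRQ, UQCRH and UQCRC2 passed in both lines. UQCRFS1 and UQCRC1 passed within HCT15-FR only, and UQCR10 and UQCR11 in neither line. Of all genes, 11.6% ranked higher for H3K27ac within HCT15-Pa and 12.8% within HCT15-FR. For H3K23su these shares were 9.58% and 10.4%. NDUFA11, an accessory subunit of the complex I membrane arm, showed the largest difference. Its H3K23su percentiles were 50.4 and 71.6 in HCT15-Pa and 83.9 and 84.7 in HCT15-FR, and its H3K27ac percentiles were 99.1, 99.1, 97.8 and 99.2. The ranges did not overlap, and the log2 difference was −1.19 (SE 0.14, adjusted p = 8.53e-06 by limma). UQCRQ, a small subunit at the cytochrome b module, had H3K23su percentiles of 77.6, 82.3, 95.5 and 89.6 and H3K27ac percentiles of 98.8 to 99.3, with a log2 difference of −0.85 (SE 0.13, adjusted p = 0.000149). NDUFA6, an accessory subunit of the peripheral arm, had H3K23su percentiles of 75.1 to 92.4 and H3K27ac percentiles of 98.6 to 99.2, with a log2 difference of −0.87 (SE 0.13). NDUFA4 was high in both marks (98.6 to 99.2 for H3K23su) and still differed by −0.82 (SE 0.11), since its H3K27ac peaks were among the strongest of each list, with scores of 36.0 and 33.2 in HCT15-Pa and 52.0 and 49.4 in HCT15-FR. NDUFS8 had a gap in mean percentile of −19.8 and did not pass the test (log2 difference −0.28, SE 0.16, adjusted p = 0.176).

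The genes that ranked higher for H3K23su included 3 of the 8 complex I assembly factors (NDUFAF2, NDUFAF4 and NDUFAF7), against 20.8% of all genes. With both lines in the fit, none of the assembly factors ranked higher for H3K27ac, against 19.3% of all genes. Within each line alone, NDUFAF2 passed in both lines, NDUFAF7 within HCT15-Pa only and NDUFAF4 in neither line. NDUFAF1 ranked higher for H3K23su within HCT15-FR only, and NDUFAF3 ranked higher for H3K27ac within HCT15-Pa only. NDUFAF2, which acts late in complex I assembly, had H3K23su percentiles of 98.5, 99.6, 98.6 and 99.4 and H3K27ac percentiles of 92.0, 86.7, 87.7 and 91.1. The ranges did not overlap, and the log2 difference was 0.97 (SE 0.13, adjusted p = 3.34e-05). ATP5PO differed by 0.91 (SE 0.13), NDUFA2 by 0.89 (SE 0.12), NDUFA8 by 0.88 (SE 0.12) and UQCRC1 by 0.78 (SE 0.15), all with an adjusted p under 0.05. The F1 genes ATP5F1A and ATP5F1C (0.37 and 0.56) and the inhibitor gene ATP5IF1, whose product blocks ATP hydrolysis by the synthase (0.41), also passed. Of these, ATP5F1C passed within each line alone, ATP5F1A within HCT15-Pa only and ATP5IF1 in neither line. The largest gaps in mean percentile in this direction were 11.5 for NDUFA3, 10.3 for ATP5IF1 and 9.63 for NDUFAF2.

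The promoter features were found in all of these groups. Of the 17 members higher for H3K23su, 6 had a start site of another gene on the opposite strand and 4 a YY1 core, and of the 13 higher for H3K27ac, 5 and 2 did, with 14 and 7 among the 41 tested genes that differed in neither direction at this threshold.

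**Figure D4:**
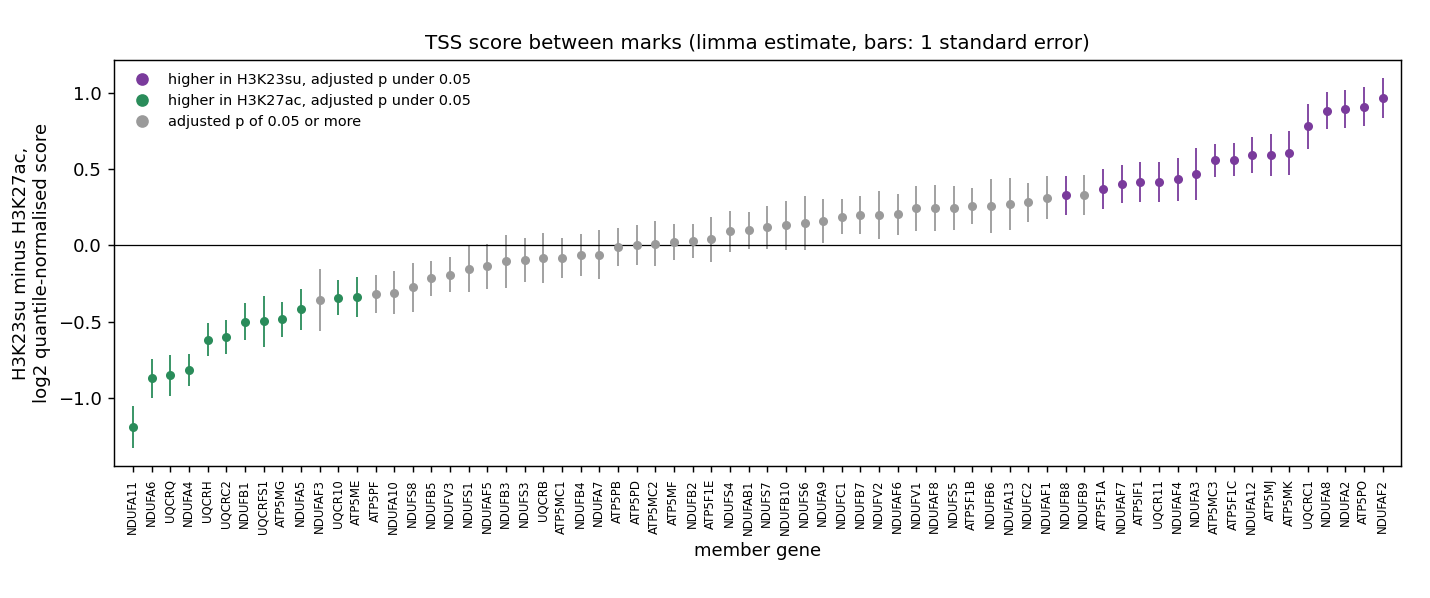
Difference between marks in the log2 quantile-normalised TSS score (H3K23su minus H3K27ac, limma estimate with a bar of 1 standard error on each side) for the members shown, without the 2 read-through genes. Purple genes rank higher for H3K23su and green genes higher for H3K27ac at an adjusted p under 0.05, with NDUFA11 at −1.19 at the left end and NDUFAF2 at 0.97 at the right end.

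Between the lines, 1 member passed the test in 1 mark. For H3K23su, limma on the quantile-normalised scores called 0 of 71 members higher in HCT15-FR and 0 lower, against 0.0488% and 0.0391% of the 10242 genes tested. At an unadjusted p under 0.05 there were 9 members, 7 higher and 2 lower in HCT15-FR, while 11.2% of all genes had such a p. For H3K27ac, 1 member was higher, against 1.45% of the 11067 genes tested, and 0 were lower, against 0.895%. Here 12 members (16.9%) had an unadjusted p under 0.05, 9 higher and 3 lower, against 18.7% of all genes. The median difference of HCT15-FR minus HCT15-Pa was 0.074 over the members and 0.0031 over all genes for H3K23su, and 0.038 and −0.00032 for H3K27ac, on the log2 scale. Before normalisation the median of all genes stood 0.24 higher in HCT15-FR for the H3K23su score and 0.21 higher for the H3K27ac score, and all differences here are relative to these shifts.

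The member that passed was ATP5MG (chr11:118272061-118303993, plus strand), which encodes subunit g of the ATP synthase membrane part, a subunit involved in the dimerisation of the enzyme. Its H3K27ac score was 13.0 and 11.4 in HCT15-Pa against 24.2 and 21.0 in HCT15-FR. Its percentiles rose from 96.0 and 93.6 to 99.2 and 98.6. The groups did not overlap, and the log2 difference after normalisation was 0.63 (SE 0.14, adjusted p = 0.0389 by limma). The peaks covered exon 1 and part of intron 1, for example chr11:118271456-118272757 in HCT15-Pa replicate 1 and chr11:118271312-118272891 in HCT15-FR replicate 1. The call did not hold without HCT15-Pa replicate 1, HCT15-Pa replicate 2 or HCT15-FR replicate 1, where the log2 difference was 0.76, 0.52 and 0.53, nor when missing peaks were set to the lowest value of their list (0.63).

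H3K23su at ATP5MG stood apart in the same direction. Its scores were 5.43 and 5.52 in HCT15-Pa and 9.72 and 9.18 in HCT15-FR, with percentiles of 77.8 and 79.0 against 96.4 and 95.5. The groups did not overlap, and the log2 difference was 0.54 (SE 0.17), with an adjusted p of 0.211 by limma, so this did not pass.

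Other members had differences that did not pass the threshold. NDUFA9, an accessory subunit at the junction of the complex I arms, had H3K27ac scores of 7.62 and 6.15 in HCT15-Pa and 11.9 and 13.9 in HCT15-FR (log2 difference 0.71, SE 0.19, adjusted p = 0.0592 by limma). The groups did not overlap. NDUFS3, a core subunit of the peripheral arm, had H3K23su percentiles of 93.9 and 92.4 in HCT15-Pa and 67.6 and 66.4 in HCT15-FR, the lowest adjusted p of the members for this mark (log2 difference −0.67, SE 0.18, adjusted p = 0.132 by limma). Here both HCT15-FR libraries were lower, by a wide margin over the gap between libraries of a line. NDUFV2, an iron-sulfur core subunit, had H3K23su scores of 12.4 and 15.2 against 12.1 and 9.45 (log2 difference −0.62, SE 0.17, adjusted p = 0.148 by limma). Neither passed the threshold. Of the 7 core subunits, 4 had both H3K23su percentiles in HCT15-FR above both HCT15-Pa values, against 28.7% of all genes tested. For 2 they were below, against 15.1%.

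**Figure D5:**
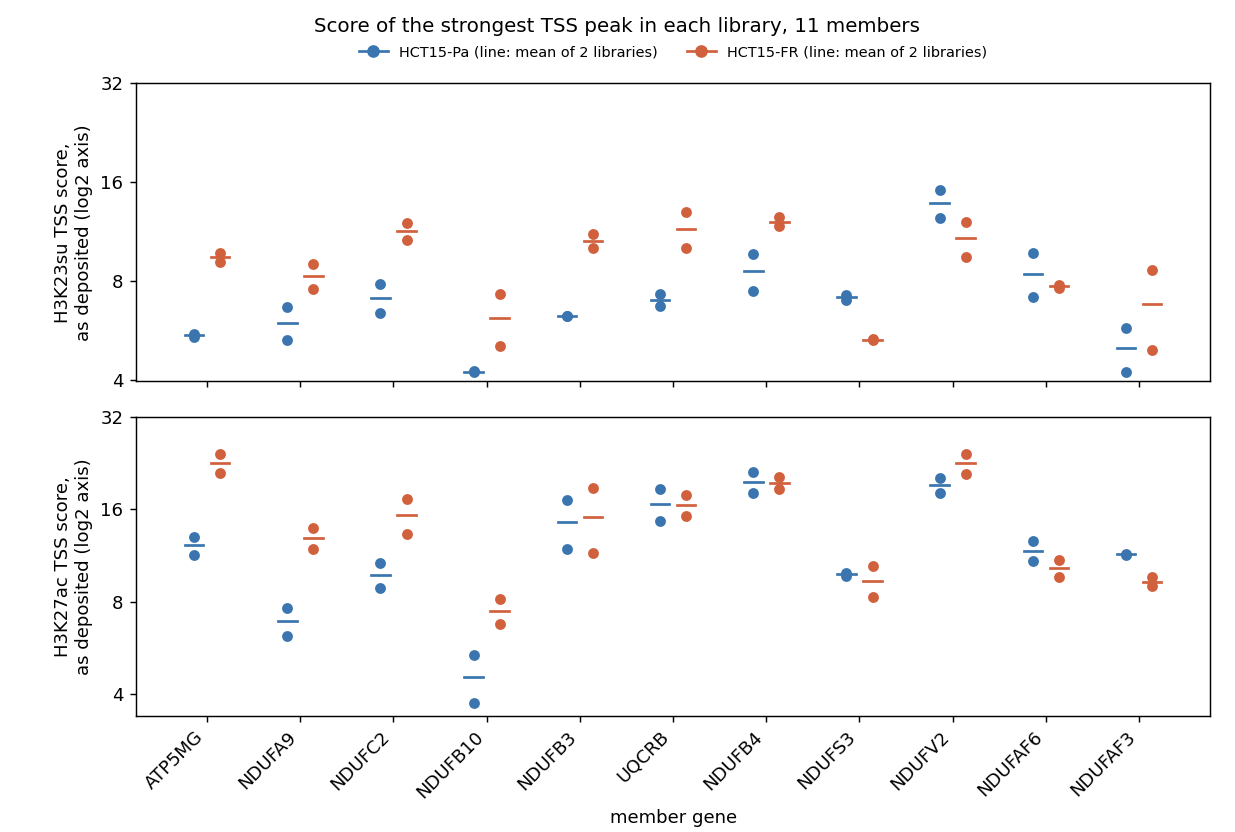
Deposited score (−log10 P, log2 axis) of the strongest TSS peak in each library for 11 members with low unadjusted p values or large differences in percentile between the lines, with H3K23su above and H3K27ac below (points, 1 library each, and lines, mean of 2 libraries). The members were chosen after their values were seen, the scores are not normalised, and ATP5MG has both HCT15-FR points above both HCT15-Pa points in each panel.

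Counts of members whose libraries did not overlap between the lines were made on the percentiles. For H3K23su, both HCT15-FR percentiles were above both HCT15-Pa percentiles for 30 of 71 members (42.3%), against 28.7% of all genes tested, and below for 13 members (18.3%), against 15.1%. For H3K27ac they were above for 20 members (28.2%), against 21.9%, and below for 15 (21.1%), against 28.2%. By role, H3K23su was above at 4 and below at 2 of the 7 complex I core subunits, at 12 and 3 of the 28 accessory subunits, at 1 and 2 of the 8 assembly factors, at 5 and 0 of the 8 complex III genes with peaks and at 5 and 2 of the 12 genes of the ATP synthase membrane part with peaks. Of the 4 F1 genes with peaks 1 was above, and ATP5F1A, ATP5F1B and ATP5F1C had lower percentiles in HCT15-FR, which were still between 94.7 and 98.6. In both marks, 11 members were above (ATP5MG, ATP5MJ, NDUFAB1, NDUFB5, NDUFB8, NDUFB10, NDUFC1, NDUFC2 with NDUFC2-KCTD14, NDUFV1 and UQCRH), against 8.32% of the 10091 genes with peaks in all lists. The 11 are 15.5% of the members and count the shared promoter of NDUFC2 as 2 genes. In both marks 5 members were below (ATP5F1B, ATP5F1C, NDUFAF6, NDUFB2 and NDUFS3), or 7.04% against 5.84%. The marks went opposite ways at 7 members (9.86%, against 8.83%), with H3K23su above and H3K27ac below at NDUFA3, NDUFB4, NDUFS5 and NDUFV3 (5.63%, against 6.37%), and the reverse at ATP5PB, NDUFA4 and NDUFB1 (4.23%, against 2.46%).

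The difference between the marks in their line effect was tested over the 10091 genes with peaks in all 8 lists. Limma called 0 members and 0% of all genes, with 8 members (11.3%) at an unadjusted p under 0.05, against 9.8% of all genes. The lowest adjusted p among the members was 0.393, for NDUFV2 (H3K23su effect minus H3K27ac effect of −0.74, SE 0.25, log2) and for UQCRB, a subunit of complex III that binds ubiquinone (0.79, SE 0.26). UQCRB had H3K23su percentiles of 91.2 and 93.7 in HCT15-Pa and 97.1 and 99.4 in HCT15-FR and H3K27ac percentiles of 99.0 and 97.2 against 95.6 and 97.5. Its H3K23su values did not overlap between the lines and its H3K27ac values did.

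No difference in peak width between the lines passed the test. For the summed width of TSS peaks, limma called 0 of 71 members higher in HCT15-FR (0% of all genes) and 0 lower (0%) for H3K23su, and 0 (0%) and 0 (0%) for H3K27ac, with 4 members (5.63%) at an unadjusted p under 0.05 in each mark, against 11.5% and 10.8% of all genes. Without normalisation, the median width of all genes stood 0.21 higher in HCT15-FR for H3K23su and 0.084 higher for H3K27ac on the log2 scale. NDUFV2 had the lowest p for H3K23su, with summed widths of 888 and 788 bp in HCT15-Pa and 1550 and 1450 bp in HCT15-FR (log2 difference 0.60, SE 0.16, adjusted p = 0.35 by limma), and its score went the other way. NDUFAF3, an early assembly factor, had the lowest p for H3K27ac, with 1712 and 1338 bp against 2431 and 2197 bp (0.51, SE 0.14, adjusted p = 0.351 by limma). The groups did not overlap in either gene.

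In the gene bodies, more than 1 kb from the TSS, the members held 61 to 66 H3K23su peaks and 37 to 61 H3K27ac peaks per library, of which 3 to 5 lay within 1 kb of the start site of another coding gene. The median body was 11356 bp and the longest, of NDUFAF2, 208326 bp. Merging peaks of the 4 libraries of a mark gave 137 H3K23su regions in 41 members, of which 20 were present in all 4 libraries. For H3K27ac there were 104 regions in 33 members, 23 of them in all 4. Of the H3K23su regions, 8 (5.84%) were in both HCT15-FR libraries only, against 7.94% over all gene bodies, and 4 (2.92%) in both HCT15-Pa libraries only, against 4.45%. Of the H3K27ac regions, 12 (11.5%) were in HCT15-FR only, against 9.94%, and 2 (1.92%) in HCT15-Pa only, against 3.82%. These shares were near the background in each case, and no test was made.

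The strongest regions limited to HCT15-FR lay in NDUFAF2 and ATP5MF-PTCD1. A region in intron 3 of NDUFAF2 (H3K23su chr5:60418720-60419365), 178010.5 bp from the TSS, had H3K23su peaks at percentiles 95.2 and 90.4 and H3K27ac peaks at 63.8 and 76.1 in the HCT15-FR libraries. It had no peak of either mark in HCT15-Pa. The TSS of NDUFAF2 itself stayed at percentiles of 98.5 to 99.6 for H3K23su in both lines. In intron 4 of ATP5MF-PTCD1, a stretch shared with PTCD1, a mitochondrial RNA-binding protein gene, H3K27ac peaks (chr7:99029368-99030822) lay at 97.4 and 98.4 in HCT15-FR and were missing in HCT15-Pa. H3K23su at the same place was missing in HCT15-Pa replicate 1, at 20.2 in replicate 2, and at 67.9 and 79.0 in HCT15-FR.

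NDUFA4L2, without a TSS peak, had an H3K23su region over exon 4 (chr12:57628894-57629233), 1823.5 bp from its TSS, in HCT15-FR only, at percentiles 65.5 and 56.2. H3K27ac peaks there lay at 35.0 in HCT15-Pa replicate 1, at 85.6 and 78.0 in HCT15-FR, and were missing in HCT15-Pa replicate 2. Past the end of the canonical NDUFA12 transcript but inside the gene record, a region (chr12:95347541-95348400) had H3K27ac peaks at 66.3 and 67.7 and H3K23su peaks at 34.0 and 66.5, all in HCT15-FR. Both marks also had regions limited to HCT15-FR in the records of NDUFAF6, NDUFB9 (in sequence shared with MTSS1) and NDUFC2-KCTD14, and the H3K23su regions limited to HCT15-FR at these places had percentiles of up to 55.9. An H3K27ac region of NDUFC2-KCTD14 limited to HCT15-FR (chr11:77731138-77731725) had H3K23su in all 4 libraries, at 24.5 and 57.3 in HCT15-Pa and 81.6 and 62.9 in HCT15-FR. In ATP5F1A (intron 5, 32.6 and 33.1) only H3K27ac and in UQCR11 (30.7 and 34.3) only H3K23su had such a region.

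Regions limited to HCT15-Pa were fewer. H3K23su had them in NDUFA10 at 2 places (36.4 and 48.1 at the first, 24.0 and 59.0 at the second), in intron 1 of NDUFAF2 (35.7 and 74.1) and in intron 2 of NDUFS4 (26.2 and 7.06). H3K27ac had them in the records of NDUFA12 (38.4 and 15.5) and NDUFB9 (3.80 and 36.9). The highest of these percentiles was 74.1.

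The other 45 genes of the pathway, which encode complexes II and IV, cytochromes c and c1 and further assembly factors, were treated in the same way. A TSS peak was present in all 4 libraries for 40 of them in H3K23su and 39 in H3K27ac. COX4I2 and COX6A2, tissue-restricted isoforms of complex IV subunits, had none in any list. For H3K23su, limma called 0 of 40 higher and 0 lower in HCT15-FR, against 0.0488% and 0.0391% of all genes tested. For H3K27ac, 1 of 39 was higher, against 1.45% of all genes tested, and 0 were lower, against 0.895%. The 1 gene was UQCC3, an assembly factor of complex III (percentiles 87.9 and 85.2 in HCT15-Pa and 95.0 and 96.1 in HCT15-FR, log2 difference 0.65, SE 0.16, adjusted p = 0.0468 by limma). Between the marks, 7 of 39 ranked higher for H3K23su, against 20.8% of all genes, among them SDHA, the flavoprotein of complex II (log2 difference 0.65). Another 7 ranked higher for H3K27ac, against 19.3%, among them UQCC2, another complex III assembly factor (−0.87).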

How the data were processed

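Peak lists of 8 CUT&Tag libraries (H3K23su and H3K27ac, 2 libraries each of HCT15-Pa and HCT15-FR) were used as deposited. Per the submitters' processing notes, Bowtie2, SAMtools, MACS2, HOMER 4.10 and deepTools were used on hg19. The methods name unique mapping, and the broad option for H3K27ac only. The deposited score of a peak is the −log10 of its P value from the authors' peak calling. Read depth is unknown from the lists, so no counting interval can be given.

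Genes and start sites came from GENCODE 44 lifted to GRCh37, with the TSS of the Ensembl canonical transcript, or of the gene record where none was marked. A percentile is the mid-rank percentile of a score in its list. Log2 scores and summed widths were quantile-normalised over genes with a TSS peak in all libraries compared and tested with limma 3.58.1 (R 4.3.3), with Benjamini-Hochberg adjustment over all genes tested at 0.05. Scripts ran in Python 3.11.15 with pandas 2.3.3 and were tested on simulated data. Genes named were those without a TSS peak in some list, those called (at most 10 a direction between lines), the 3 with the lowest and the 3 with the highest mean percentile for each mark, the 3 with the largest percentile difference between marks in each direction, those with a gene body region limited to a line, and further genes chosen after their values were seen. Members and lists were chosen with earlier results of these data known. The labels give no batch. Alternatives were other scalings, windows, start sites, peak thresholds, merging distances, missing values, a replicate block, each line alone and leaving out each library. Some items are counted in the totals but not reported here by name.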

Additional observations from a re-analysis of the deposited data

How the results depend on the processing

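Of 412 alternative values, 369 kept their direction and side of the threshold and 0 reversed. Some of these values are counts of members, which have no direction to reverse. For peak width no gene was called in any setting, so the counts of calls there hold no information on stability. For those that moved, the cause was not tested. Without normalisation, which keeps the shift of all genes, limma called 8 members higher in HCT15-FR for H3K23su (ATP5MG 0.79), against 6.84% of all genes, and 15 for H3K27ac, against 13.3%. The H3K27ac count of 1 became 2 with median centring, 2 with the gene-record TSS and 2 with any coding TSS, against 2.18%, 1.93% and 2.08% of all genes. It became 0 with missing peaks set to the lowest value, against 0.798%. With the gene-record TSS 1 member was lower, against 1.29%. The members higher for H3K23su than H3K27ac numbered 11 within HCT15-Pa and 11 within HCT15-FR, against 9.58% and 10.4% of all genes.

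Replicate numbers 1 and 2 name libraries only, and deviations of same-numbered libraries correlated at 0.00351 (H3K23su) and −0.0173 (H3K27ac) over genes. With a replicate block, 3 members were higher for H3K27ac (ATP5MG, NDUFA9, NDUFS6), against 3.75% of all genes. Calls over all genes went from 9 to 0 for H3K23su and from 260 to 838 for H3K27ac.

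H3K23su TSS peaks limited to HCT15-FR numbered 1 at 2 kb, 2 in the stronger 50% of each list (NDUFB10 among them), 1 with at least 200 bp covered, and 0 to 1 leaving out a library. Those limited to HCT15-Pa numbered 1 at 2 kb, 1 with the gene-record TSS and 1 with any coding TSS. For H3K27ac they numbered 2 with the gene-record TSS, 1 with any coding TSS and 0 to 1 leaving out a library. In the main setting, peaks limited to 1 line were found at 1.25% to 2.06% of all genes, depending on mark and line. The shares of all genes under the alternatives are not given, so these counts cannot be set against their own background. Leaving out a library also loosens the rule. The H3K27ac median of covered bases was 1143.5 at 2 kb.

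For gene body regions, leaving out a library loosens the rule for a region limited to a line, so higher counts follow from the rule itself. The shares over all gene bodies are not given for the settings of this paragraph. Leaving out a library, H3K23su regions limited to HCT15-FR numbered 10 to 28 and to HCT15-Pa 7 to 29, and H3K27ac regions 14 to 27 and 2 to 19. In the stronger 50%, 1 H3K23su region was limited to HCT15-Pa and 6 H3K27ac regions to HCT15-FR. With peaks within 500 bp merged, 4 H3K27ac regions were limited to HCT15-Pa.

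Over all genes and alternatives other than leaving out a library, calls ranged from 0 to 717 for H3K23su (2 to 25 leaving out a library), from 208 to 1539 for H3K27ac (12 to 517), from 2222 to 5158 between marks (3190 to 3955) and from 0 to 6 for the difference in line effect (0 to 2). Widths gave 0 calls throughout. With 2 libraries a group, small differences were not detectable.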

Other observations

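Genes for 10 regulators of the pathway were set beside the members. PPARGC1A, a coactivator of mitochondrial biogenesis, had no TSS peak in any of the 8 lists, and the other 9 had peaks in all 8. Between the lines, limma called none of the 9 in either mark. TFAM, which packages and transcribes mitochondrial DNA, had H3K23su percentiles of 99.4, 99.3, 99.0 and 99.4 and H3K27ac percentiles of 97.1, 94.7, 96.4 and 95.0 in the order HCT15-Pa 1 and 2, HCT15-FR 1 and 2 (log2 difference between marks 0.61, SE 0.11). TFB2M, a mitochondrial transcription factor, had a difference of 0.60 (SE 0.13). YY1 went the other way, with H3K23su percentiles of 53.7, 36.7, 61.0 and 47.6 and H3K27ac percentiles of 90.1, 96.5, 93.8 and 77.5 (−0.84, SE 0.16).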
